A study of Mus musculus with 6 samples.

Results

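The collagen genes, those with a symbol of the form Col, number, a, number, were examined in 3T3-L1 adipocytes, a mouse fat cell line differentiated from fibroblast-like preadipocytes in culture. By this rule 41 of the 19038 genes named on the MouseWG-6 BeadChip were members, with 91 of its 45281 probes, and comprised 11 fibrillar, 6 basement membrane and 24 other collagens. Differentiated cells kept for 24 hours in medium with 5% stripped serum received 500 nM dexamethasone (DEX), a synthetic glucocorticoid, for 6 hours, and vehicle cells received ethanol in the same medium for the same time. Each group had 3 arrays. The inducing medium used for differentiation, which both groups had received earlier, also contained dexamethasone, so the comparison is of a second exposure with no second exposure. By the methods the treatments were run in triplicate, with no word on whether these were separate cultures, and the p-values therefore rest on a spread between arrays that can be technical.

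Collagens are secreted proteins whose chains wind around each other in a helix, and the genes encode the single chains. Fibrillar collagens pack into the fibers that give connective tissue its strength. Basement membrane collagen, type IV, forms a sheet-like network that surrounds each mature fat cell. The others include type VI, which forms beaded filaments and is abundant in adipose tissue, the FACIT collagens, which sit on the surface of fibrils, the multiplexins of the basement membrane zone, short-chain network collagens, anchoring fibrils and collagens that span the plasma membrane.

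The gene table for the mouse holds 44 genes of this form. Col6a3, Col12a1 and Col20a1 had no named probe and were not analysed here. A probe counted as detected on an array at a detection p under 0.05, and was tested if detected on at least 3 of the 6 arrays, which 33 probes of 23 members were. No member was tested through detection in a single group. Of the 23, 17 were detected on every array, and 17 still counted as detected when the limit was set at 0.01. The values below are log2 signals after background correction and quantile normalization, and each gene is given by the brightest of its tested probes unless another probe is named. Probes bind with different strength, so signals of different genes were not set against each other.

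Of the fibrillar collagens 9 of 11 were tested, of the basement membrane collagens 3 of 6, and of the others 11 of 24. Over the whole array 9140 of the 19038 named genes were tested. With a probe detected on all 6 arrays there were 5 fibrillar, 3 basement membrane and 9 other genes. At the limit of 0.01 there were 6, 3 and 8. The larger tested share of the fibrillar class rested on the dim Col5a3, Col11a1, Col11a2 and Col27a1, none with a probe detected on every array. On no array was a probe detected for 15 genes. These were the fibrillar Col24a1, known from bone and cornea, the type IV chains Col4a3, Col4a4 and Col4a6, the beaded filament chains Col6a4, Col6a5 and Col6a6, the network collagens Col8a2 and Col10a1, of which Col10a1 is made by hypertrophic chondrocytes, the FACIT genes Col9a2, Col9a3, Col14a1, Col19a1 and Col22a1, and the transmembrane Col13a1. A further 3 were detected on too few arrays for a test. Col17a1, the hemidesmosome collagen of skin, and Col28a1 were detected on 1 DEX array and no vehicle array, and Col2a1, the main cartilage collagen, on 1 DEX and 1 vehicle array. For these 18 genes only a bound near the detection limit is known, between 4.97 and 5.05 on the log2 scale. Of the tested members 7 had a mean signal under 6, where the background makes up most of the bead signal.

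**Figure D1:**
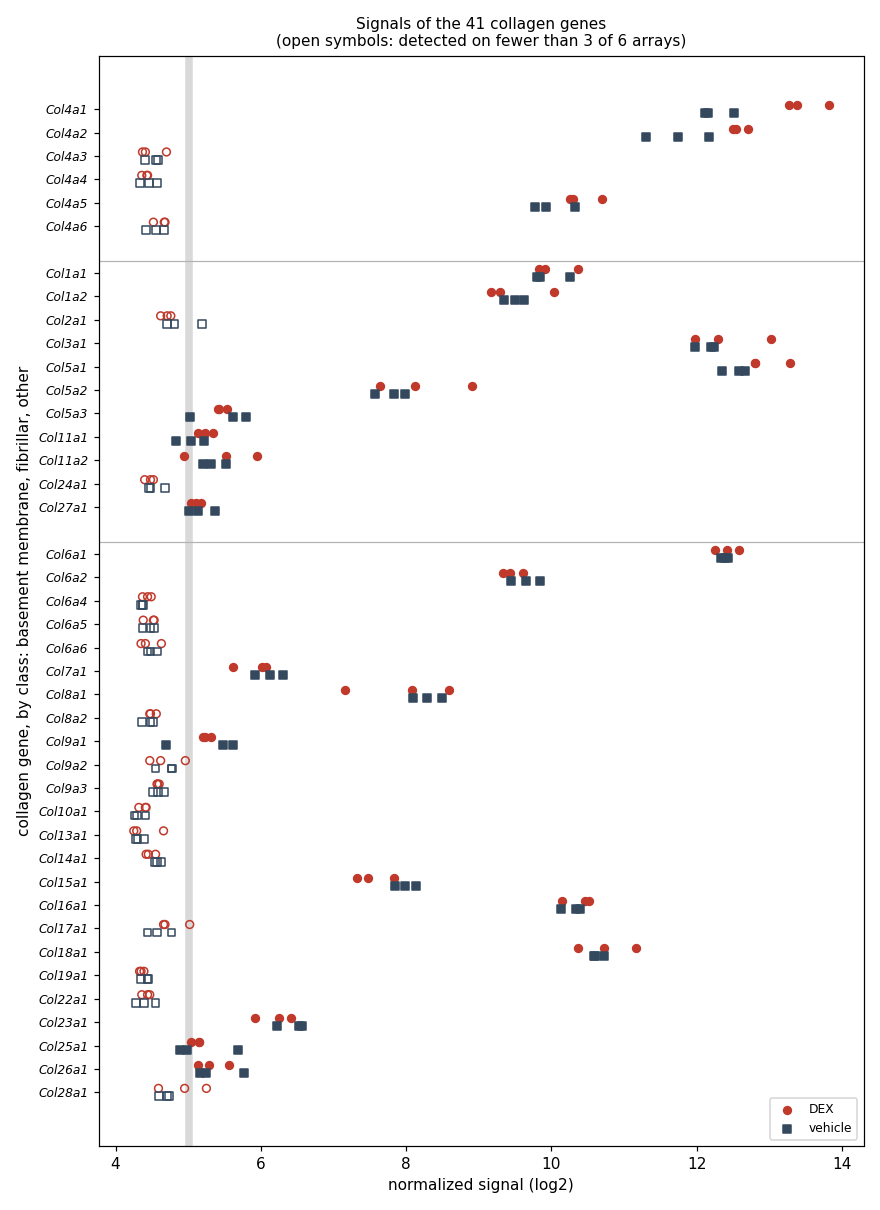
Normalized log2 signal of the 41 collagen genes on each array (x axis; circles DEX, squares vehicle), by class in order of number; the grey band marks the lowest signals called detected. Only 1 probe is shown per gene, filled where it was detected on at least 3 of the 6 arrays, and the 18 genes with open symbols lie at or near the band.

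DEX raised 2 collagen genes, Col4a1 and Col4a2, and lowered none at an adjusted p under 0.05 (limma, Benjamini-Hochberg adjustment over 16317 probes). The 2 higher members are 8.70% of the 23 tested, beside a background of 4.52% of 9140 tested genes called higher and 3.05% called lower. At an unadjusted p under 0.05 there were 4 members, Col4a1, Col4a2 and Col5a1 higher and Col15a1 lower, 17.4% of those tested beside 21.9% of all tested genes. The groups did not overlap for 4 of the 23 members, 17.4%, a smaller share than the 27.9% of all tested genes. By probe, 2 of 33 were higher and none lower, beside 4.25% higher and 2.55% lower of all tested probes. The median log2 fold change of the members was 0.04, with 13 above and 10 below 0, and that of all tested genes was -0.06.

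Col4a1 encodes the main chain of the type IV network and pairs with the Col4a2 chain in the collagen found in nearly every basement membrane. Its probe, ILMN_2621643, gave 13.27, 13.38 and 13.82 on the DEX arrays and 12.51, 12.16 and 12.12 on the vehicle arrays. Every DEX array lay above every vehicle array, with a gap of 0.76 between the nearest. The mean was 13.49 ± 0.29 in DEX and 12.26 ± 0.22 in vehicle (SD, n = 3 each). The log2 fold change was 1.23 with a standard error of 0.19, a 2.34-fold rise with a 95% confidence interval of 1.75 to 3.14, at an adjusted p of 0.00401 (limma). The rise was also plain in the deposited bead signals before any correction, at 10120, 9716 and 13550 in DEX and 6244, 4759 and 5057 in vehicle. Of the tested genes 97.9% had a lower fold change. In all 14 alternative analyses Col4a1 passed, with a log2 fold change of 1.06 to 1.35.

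Col4a2, the partner chain, was measured by probe ILMN_2822579 at 12.54, 12.50 and 12.71 in DEX and at 12.17, 11.74 and 11.30 in vehicle. The DEX arrays lay close together, and the vehicle arrays were spread over almost a whole log2 unit. Its log2 fold change was 0.85 with a standard error of 0.21, a 1.80-fold rise with a 95% confidence interval of 1.29 to 2.51, at an adjusted p of 0.0456 (limma). This call was close to the threshold and held in 8 of 14 alternatives. It was lost without DEX replicate 1, 2 or 3 (adjusted p of 0.0619, 0.108 and 0.108), without vehicle replicate 2 or 3 (adjusted p of 0.15 and 0.143), and when every probe was tested (adjusted p of 0.16, limma). The log2 fold change without 1 array stayed between 0.63 and 1.07.

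Col4a5, an X-linked type IV chain known from the basement membranes of kidney and smooth muscle, had 2 tested probes that differed in the overlap of the groups. The brighter one gave 10.26, 10.30 and 10.70 in DEX and 10.32, 9.93 and 9.78 in vehicle, with vehicle replicate 1 within the range of the DEX arrays. The log2 fold change of this probe was 0.41 (95% confidence interval -0.02 to 0.83, adjusted p of 0.271, limma). The dimmer probe gave 8.22, 8.30 and 8.01 in DEX and 7.83, 7.44 and 7.25 in vehicle, which did not overlap. Its log2 fold change was 0.67 (95% confidence interval 0.27 to 1.08) at an adjusted p of 0.0586, and 0.0227 with the replicate number as a block (limma), a fit that called 11.5% of all probes and 12.5% of all genes. It also passed in 5 of the unblocked alternatives, with no background correction (adjusted p of 0.0479), an offset of 50 (0.0439), the series matrix values (0.0445), array weights (0.00467) or without vehicle replicate 1 (0.0348), so 6 of 14 alternatives called it. Both probes were on the higher side, and neither passed in the main analysis.

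The changes of Col4a1 and its neighbors in the class were compared within arrays. The log2 fold change of Col4a1 exceeded that of Col4a2 by 0.38 (exact permutation test, two-sided p = 0.2, adjusted over 3 comparisons 0.2), that of Col4a5 by 0.82 (exact p = 0.1, adjusted 0.15) and that of Col1a1, the marker of the fibrillar class, by 1.16 (exact p = 0.1, adjusted 0.15). With 3 arrays against 3 the smallest p this test allows is 0.1, so none could pass.

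**Figure D2:**
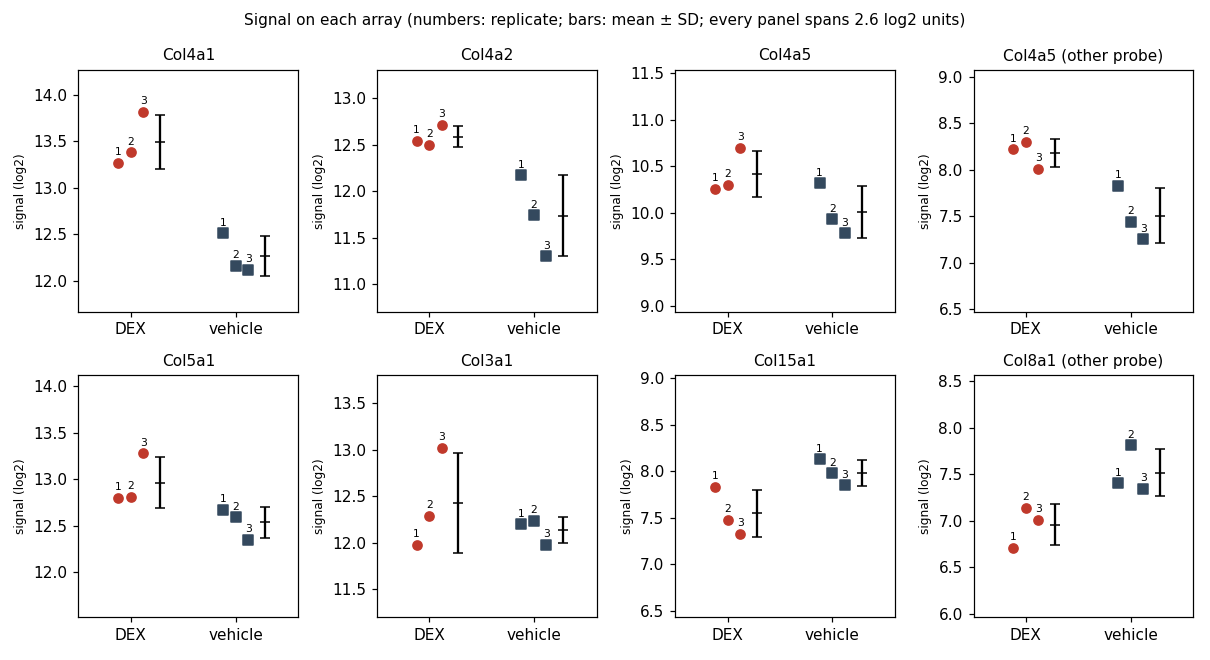
Normalized log2 signal on each array (y axis) of 8 collagen probes, DEX left of vehicle, with the replicate number at each point and the mean ± SD beside it (n = 3 each). DEX lies above vehicle without overlap for Col4a1, Col4a2, the dimmer Col4a5 probe and Col5a1, and below it for Col15a1 and the dimmer Col8a1 probe. For Col3a1 the groups overlap and DEX replicate 3 stands above the rest.

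Col4a1 and Col4a2 lie head to head on chromosome 8 and are read from opposite strands. In the RefSeq annotation of GRCm38.p6 their transcripts overlap by 22 bases from their starts. The stretch is shown because the only collagens called higher share it, and whether it bears on their change was not tested. In the first line capitals mark the 22 shared bases, and in the other lines the CCAAT box of each window (ATTGG where it lies on the opposite strand), which starts 145 bases before the Col4a1 start and 32 bases before the Col4a2 start.
Col4a2 start, chr8:11312801-11312830, + strand: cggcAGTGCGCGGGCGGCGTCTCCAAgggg
Col4a1 CCAAT box, chr8:11312954-11312983, - strand: tgcttgcccgggATTGGcgagccaaggggc
Col4a2 CCAAT box, chr8:11312761-11312790, + strand: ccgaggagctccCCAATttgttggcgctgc

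Promoter windows of 300 bases, 250 before and 50 after the annotated start, were found for 33 of the 41 members (36 windows, RefSeq, GRCm38.p6), and searched on both strands. The glucocorticoid response element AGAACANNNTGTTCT was in 0 of the 36 windows and in 3 of all 32851 windows (0.00913%). A full match is so rare in all windows that its absence from 36 of them is uninformative. The half-site AGAACA, which the full element contains, was in the window of Col9a1 alone, and in 19.0% of all windows. The GC box GGGCGG was in 23 of 36 member windows, 63.9%, against 35.7% of all windows, and was present for Col4a1, Col4a2 and Col4a5. The only GC box of the Col4a1 window lies after both starts, in the stretch shared with Col4a2. It is the same site as 1 of the Col4a2 boxes, so this site counts for both windows. CCAAT was in 36.1% of member windows, these 3 genes included, against 37.4% of all, and TATAAA in 13.9% against 13.6%. The TATAAA windows belonged to Col3a1, Col10a1, Col11a2, Col13a1 and Col17a1. A match is a description of letters and not a binding site, and the windows do not cover more distant sequence.

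Of the 9 tested fibrillar collagens none passed, 7 had a log2 fold change above 0, and the median was 0.12 (range -0.07 to 0.42). Among all tested genes 3865 of 9140 were above 0, and the median was -0.06. Col1a1 and Col1a2 encode the chains of type I collagen, the main fiber of skin, tendon and bone. Col1a1 gave 9.83, 10.37 and 9.91 in DEX and 9.80, 10.26 and 9.84 in vehicle, a log2 fold change of 0.07 with a 95% confidence interval of -0.37 to 0.51. The replicates 2 of both groups were the high ones. Col1a2 gave 9.17, 9.29 and 10.04 in DEX and 9.35, 9.62 and 9.50 in vehicle, a log2 fold change of 0.01 (95% confidence interval -0.50 to 0.52). DEX replicate 3 was the highest Col1a2 array and DEX replicate 1 the lowest. In fold terms these intervals run from 0.775 to 1.42 for Col1a1 and from 0.709 to 1.44 for Col1a2.

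Type V collagen sits inside type I fibrils and limits their width, and its Col5a1 chain was the only gene of the class whose groups did not overlap. Col5a1 gave 12.80, 12.81 and 13.28 in DEX and 12.67, 12.59 and 12.35 in vehicle, with a gap of 0.13 between the nearest arrays. Its log2 fold change of 0.42 (95% confidence interval 0.02 to 0.82) had an adjusted p of 0.211 (limma). Col5a2, the second chain of the same protein, gave 7.64, 8.12 and 8.91 in DEX and 7.99, 7.83 and 7.57 in vehicle, a log2 fold change of 0.42 at an adjusted p of 0.453. The change of a dimmer Col5a2 probe was 0.69 on the log2 scale (adjusted p of 0.224, limma). Without DEX replicate 1 this became 1.03 at an adjusted p of 0.0311, and without DEX replicate 3 it was 0.35. Col5a3, a chain of more restricted tissues, had a log2 fold change of -0.02.

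Col3a1, the chain of the fine fibers of distensible tissues, gave 11.98, 12.29 and 13.02 in DEX and 12.20, 12.24 and 11.98 in vehicle. The DEX arrays spanned more than a log2 unit and enclosed the vehicle arrays. The log2 fold change was 0.29 (95% confidence interval -0.26 to 0.85, adjusted p of 0.556, limma), and 0.00 without DEX replicate 3. That of its second probe was 0.40 (adjusted p of 0.329). Col3a1 and Col5a2 are next to each other on chromosome 1, and both were highest on DEX replicate 3 and higher on DEX replicate 2 than on DEX replicate 1. This order was not particular to the neighbors, since Col4a1, Col1a2 and the brighter Col4a5 and Col8a1 probes had it too. The remaining fibrillar genes were dim. Col11a1 and Col11a2, chains of cartilage type XI collagen, had log2 fold changes of 0.20 and 0.12, and Col27a1, a cartilage fibrillar collagen, one of -0.07.

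**Figure D3:**
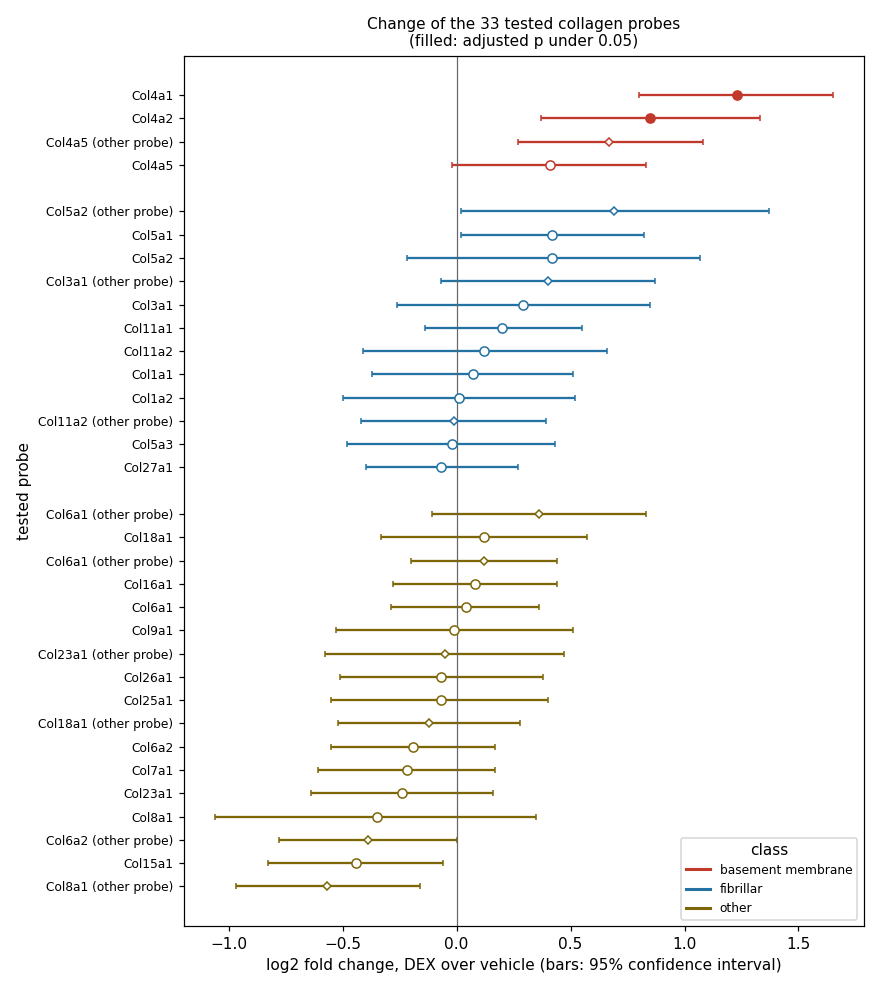
Log2 fold change of DEX over vehicle (x axis) of the 33 tested collagen probes by class, with 95% confidence intervals from limma; circles are the brightest probe of a gene and small diamonds its other probes. Filled symbols mark an adjusted p under 0.05, which Col4a1 and Col4a2 alone have. The fibrillar probes range from -0.07 to 0.69, and the lowest value is that of the dimmer Col8a1 probe, -0.57.

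Among the 11 other collagens tested, none passed and 8 had a log2 fold change below 0, with a median of -0.07 (range -0.44 to 0.12). This median is close to the -0.06 of all tested genes, of which 5275 of 9140 were below 0. Col6a1 and Col6a2 encode chains of type VI collagen and are neighbors on chromosome 10. Col6a1 gave 12.42, 12.26 and 12.59 in DEX and 12.43, 12.39 and 12.34 in vehicle. Its log2 fold change of 0.04 had a 95% confidence interval of -0.29 to 0.36, so a rise as large as that of Col4a1 lies outside it. For a second Col6a1 probe the log2 fold change was 0.12, and for another, dim one 0.36. Col6a2 gave 9.33, 9.61 and 9.43 in DEX and 9.65, 9.84 and 9.44 in vehicle, a log2 fold change of -0.19 (adjusted p of 0.559, limma). For its dimmer probe the value was -0.39 (adjusted p of 0.244), and -0.53 with array weights (adjusted p of 0.035, limma).

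The multiplexins Col15a1 and Col18a1 carry glycosaminoglycan chains in the basement membrane zone, and the end of the Col18a1 chain is released as endostatin. Col15a1 gave 7.83, 7.48 and 7.33 in DEX and 8.13, 7.98 and 7.85 in vehicle. The nearest arrays of the groups were 0.03 apart, and the groups did not overlap. Its log2 fold change of -0.44 (95% confidence interval -0.83 to -0.06) was the lowest of the genes and had an adjusted p of 0.17 (limma), with 0.0504 to 0.4 over 14 alternatives. Col18a1 gave 10.72, 10.37 and 11.16 in DEX and 10.59, 10.60 and 10.72 in vehicle, a log2 fold change of 0.12, and its dim second probe one of -0.12. Type IV genes and the multiplexins, all basement membrane components, thus had values of both signs.

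Col8a1, a short-chain network collagen of the vessel wall and cornea, had 2 tested probes below 0. The brighter gave 7.16, 8.08 and 8.59 in DEX and 8.29, 8.50 and 8.09 in vehicle. DEX replicate 1 was far below the vehicle arrays, DEX replicate 2 just below them and DEX replicate 3 above them. The log2 fold change was -0.35 (adjusted p of 0.585, limma), and 0.04 without DEX replicate 1. The dimmer probe gave 6.71, 7.14 and 7.01 in DEX and 7.40, 7.81 and 7.34 in vehicle, which did not overlap. The change, -0.57 on the log2 scale, had an adjusted p of 0.104, of 0.0373 with the replicate block and of 0.0354 with array weights (limma). It passed in 2 of 14 alternatives.

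Col16a1, a FACIT collagen, gave 10.14, 10.52 and 10.46 in DEX and 10.34, 10.40 and 10.13 in vehicle, a log2 fold change of 0.08. Col7a1, the anchoring fibril collagen of skin, had a log2 fold change of -0.22, and the transmembrane Col23a1 one of -0.24, with -0.05 for a dim second probe. Col9a1, a cartilage FACIT chain, the transmembrane Col25a1 and Col26a1 were dim, with log2 fold changes between -0.07 and -0.01. Of the 9 members with more than 1 tested probe, 7 had probes of the same sign. The exceptions were Col11a2 and Col18a1, whose second probes were dim.

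The members were not equally even across replicates. By their brightest probes, the 3 tested type IV genes were all highest in DEX on DEX replicate 3, a median of 0.42 above the other DEX arrays, where the median of all tested genes was -0.04. The dimmer Col4a5 probe was instead lowest there, at -0.25 against the other DEX arrays. In vehicle all 3 were highest on vehicle replicate 1 (median 0.47 above the other vehicle arrays, all genes 0.01) and lowest on vehicle replicate 3 (median -0.35, all genes -0.01). Low values on vehicle replicate 3 were not particular to type IV, with a median of -0.25 for the fibrillar class and -0.20 for the other collagens. On DEX replicate 3 Col5a2, Col5a1, Col3a1, Col1a2, Col18a1 and the brighter Col8a1 probe were also high. Col15a1, Col23a1, Col7a1 and the dim Col11a2 and Col26a1 were at their lowest there. Without DEX replicate 3 the log2 fold change of Col4a1 was 1.06 (adjusted p of 0.00906, limma) and that of Col5a1 0.27.

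**Figure D4:**
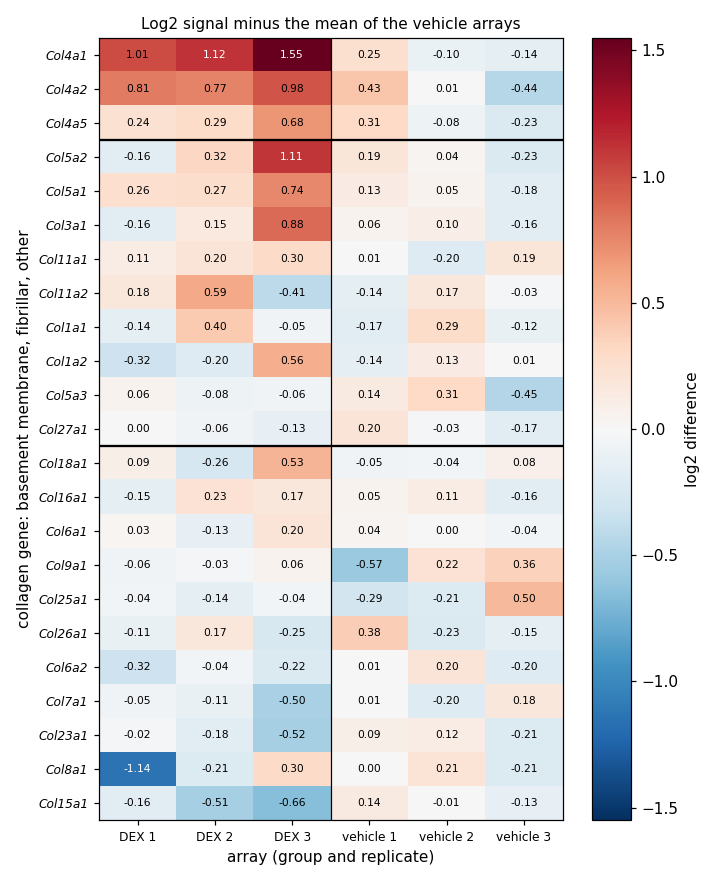
Log2 signal of the 23 tested collagen genes on each array (columns, DEX left) minus the mean of the vehicle arrays, with the lines between basement membrane, fibrillar and other collagens. Col4a1 is 1.01, 1.12 and 1.55 above the vehicle mean on the DEX arrays, and Col5a2, at -0.16, 0.32 and 1.11, rests on DEX replicate 3.

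Genes that build, export, decorate and bind collagen mostly did not pass the test. Of 16 tested genes for modification and folding of the chains, none passed and the median log2 fold change was -0.05 (4 at an unadjusted p under 0.05, 25% beside 21.9% of all tested genes). Serpinh1, the collagen chaperone HSP47, gave 13.29, 13.57 and 13.12 in DEX and 13.71, 13.94 and 13.72 in vehicle. These did not overlap, and the log2 fold change was -0.46 at an adjusted p of 0.134 (limma). The largest change of the list was that of Tmem38b, an ion channel of the endoplasmic reticulum, with 10.50, 9.89 and 9.55 in DEX and 9.40, 8.69 and 8.77 in vehicle, a log2 fold change of 1.03 at an adjusted p of 0.0512. P4hb, a subunit of prolyl hydroxylase, had a mean signal of 12.63 in both groups. The summed normalized signal of the 16 genes, on the linear scale, was 27100 to 32300 in DEX and 33000 to 35600 in vehicle. Such a sum is weighted to the brightest probes, here that of Serpinh1 above all, and does not describe the list as a whole. Of 9 tested genes for export and processing of procollagen none passed (1 at an unadjusted p under 0.05, 11.1% beside 21.9% of all tested genes, limma). Among them the log2 fold change was 0.18 for Sparc, a matrix protein that binds collagen, and -0.15 for Mia2, a protein of the sites where large cargo leaves the endoplasmic reticulum.

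Of the proteoglycans of the small leucine-rich family, which coat fibrils, 7 were tested through detection in both groups, and 1 of them was higher and none lower. The shares over all tested genes were 4.52% called higher and 3.05% called lower. Prelp, which links basement membranes to the collagen beneath them, gave 13.33, 13.27 and 13.45 in DEX and 12.61, 12.48 and 12.24 in vehicle. It was 1.88-fold higher with DEX (adjusted p of 0.00653, limma). Omd, known from bone, was detected on all DEX arrays at 5.09, 5.70 and 5.37 but on none of the vehicle arrays, at least 1.29-fold higher. It was tested only because the DEX arrays detected it, so its p is not used here. This bound compares the DEX mean with the lowest signal among detected probes of each vehicle array. Dcn and Bgn, decorin and biglycan, had log2 fold changes of 0.05 and 0.06.

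Of 7 tested receptors and uptake genes 1 was lower and none higher, beside 3.05% of all tested genes called lower and 4.52% called higher. Itga11, the integrin chain through which fibroblasts bind type I collagen, gave 6.23, 6.59 and 6.76 in DEX and 7.57, 7.49 and 7.24 in vehicle, with no overlap. It was 1.87-fold lower with DEX (adjusted p of 0.015, limma), a call lost without DEX replicate 2, vehicle replicate 1 or vehicle replicate 2 and with all probes tested. For the collagen receptor kinase Ddr1 the log2 fold change was 0.03, and for Antxr2, which takes up collagen VI, it was -0.15.

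Markers of other cells were measured beside the collagens, since a bulk sample cannot tell fewer cells of a type from less RNA per cell. All 9 adipocyte markers on the array were tested, with a summed normalized signal of 67000 to 74000 in DEX and 60800 to 63000 in vehicle. These sums, too, are weighted to the brightest probes of a list. One of them, the droplet protein Plin1, was lower (log2 fold change -1.03, adjusted p of 0.00289, limma), and the others ranged from -0.15 for Fabp4 to 0.74 for Cd36, with a median of 0.11 over the list. Of preadipocyte or fibroblast markers 8 were tested, with sums of 22300 to 26300 in DEX and 22100 to 24000 in vehicle, and 1, Pdgfrb, was lower (log2 fold change -1.10, adjusted p of 0.0188, limma). The median over that list was 0.12, and Pdgfra (0.63, adjusted p of 0.051) and Vim (0.51, adjusted p of 0.0795) had the highest values. Beside the lower calls of 1 of 9 and 1 of 8 markers, 3.05% of all tested genes were called lower. The 3 tested smooth muscle markers summed to 8170 to 14300 in DEX, lowest on DEX replicate 3, and to 10700 to 14100 in vehicle, and none passed. No macrophage or endothelial marker could be tested, and Adgre1, Ptprc, Csf1r, Kdr, Tek and Vwf were detected on no array. The macrophage marker Lyz2 and the endothelial markers Pecam1 and Cdh5 were detected on at least 1 array, but on too few for a test. Of the chondrocyte markers Sox9 and Comp were tested and did not pass, and Acan, Matn1 and Hapln1 were detected on no array. The part of remaining preadipocytes in the collagen values was not tested.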

How the data were processed

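Total RNA of 3 DEX and 3 vehicle samples was measured. The authors deposited mean bead signals, an intensity per probe and array that is neither background-corrected nor normalized, and with it a detection p-value per probe and array. A second deposited table holds intensity values from the authors' lumi pre-processing and was used as an alternative. Sorted, its 6 columns differ by at most 0.32%, as after quantile normalization, and the other lumi options were not stated.

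The background of the bead signals was removed by limma's neqc (normexp, with the negative controls inferred from detection p-values and an offset of 16, which shrinks folds of dim probes), and signals were quantile-normalized and taken to log2 in limma 3.58.1 (R 4.3.3). Probes detected at p under 0.05 on at least 3 of 6 arrays, 16317 (36.03%), were tested with limma's two-sided moderated test, DEX over vehicle, with Benjamini-Hochberg adjustment. A gene was counted by its tested probe with the highest mean. Per array 15983 to 16523 probes were detected in DEX and 15800 to 16512 in vehicle, and arrays correlated at 0.9745 to 0.9935 within groups. Precision is limited by the number of arrays, and the test was checked on simulated data. Of the probes 34885 have 1 symbol, 18 several and 10378 none, and 29 symbols were updated.

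Members, gene lists and tests were chosen with earlier results of these data known. Every member is named. Members with a probe past the threshold and the 8 with the highest mean are given per array, and other members shown per array were chosen after their values were seen. From each pathway list up to 4 members that passed and up to 2 brightest that did not were named, and Tmem38b and marker genes that did not pass were added after their values were seen. Same-numbered DEX and vehicle arrays deviated together (correlations of 0.4403, 0.2956 and 0.2494, against -0.3699 to 0.1044 for other pairs), so the numbers were taken as pairs in an alternative fit. Other alternatives varied the background, normalization, filter, source, weights, probe, fold threshold and arrays.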

Additional observations from a re-analysis of the deposited data

How the results depend on the processing

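Col4a1 passed in all 14 alternatives and Col4a2 in 8 of 14, and by its brightest probe no collagen gene was called lower in any. Dimmer probes of Col6a2 (array weights) and Col8a1 (array weights, replicate block) were called lower, and the dimmer Col4a5 probe higher in 6 of 14. The count of collagens called higher was 1 with all probes tested or a change over 2 fold, and 1 to 2 without 1 array. For the pathway lists Prelp was the only higher call of the main analysis that did not rest on detection in DEX alone. Counts that can include Omd, tested only through the DEX arrays, are not read as calls. They were 2 in the main analysis, 5 with array weights, 4 with the replicate block and 1 to 3 without 1 array. With detection on all 6 arrays, which leaves Omd out, the higher count was 1. The lower count of 1 became 0 with all probes tested, 3 with array weights and 0 to 1 without 1 array. The basement membrane median was 0.24 with all probes tested, where the undetected chains join it. The replicate block otherwise changed the call of the dimmer Col4a5 and Col8a1 probes only among the collagens. Over all genes, 413 were higher and 279 lower, against 792 and 846 with array weights, 600 and 543 with the block, 311 and 197 with all probes tested, and 246 to 448 and 88 to 355 without 1 array. The cause of these shifts was not tested.

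Signs turned only for log2 fold changes that did not pass. With median scaling these were Col11a2's dimmer probe 0.09, Col1a2 -0.03, Col27a1 0.02, Col5a3 0.07, Col9a1 0.09, Col6a1 -0.01, Col26a1 0.00, Col23a1's dimmer probe 0.05 and Col25a1 0.01, and with array weights Col1a2 -0.21, Col6a1 -0.06, Col26a1 0.19 and Col18a1 -0.10. Without 1 array the ranges were -0.11 to 0.39 for Col11a2, -0.13 to 0.15 for its dimmer probe, -0.09 to 0.22 for Col1a1, -0.26 to 0.18 for Col1a2, -0.15 to 0.03 for Col27a1, 0.00 to 0.52 for Col3a1, -0.25 to 0.13 for Col5a3, -0.30 to 0.17 for Col9a1, -0.05 to 0.12 for Col6a1, -0.18 to 0.12 for Col26a1, -0.09 to 0.31 for Col18a1, -0.26 to 0.02 for its dimmer probe, -0.68 to 0.04 for Col8a1, -0.34 to 0.14 for Col23a1's dimmer probe and -0.22 to 0.18 for Col25a1. Signals near background limit what can be said of the dim members.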
